A study of Mus musculus with 3 samples.

Results

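DNA methylation was examined at 9 mouse genes that are transcribed late in spermatogenesis: the protamine genes Prm1 and Prm2, the transition protein genes Tnp1 and Tnp2, the sperm structure genes Odf1, Acrv1 and Smcp, and the energy metabolism genes Ldhc and Pgk2. They were chosen by name as textbook genes of meiotic and post-meiotic germ cells, 9 of 21774 RefSeq protein-coding genes, by a rule that used no measured value. Earlier results of these data were known when the choice was made. The cells were spermatogonia of C57BL6/J mice at postnatal day 7 (P7), purified by fluorescence-activated cell sorting (FACS) with an antibody against the surface protein EpCAM, so every gene was read before the stage at which it is transcribed. Whole-genome bisulfite sequencing gave 1 library each for wild type (WT), Pld6 knockout (KO) and Dnmt3l KO. The mutant lines had been backcrossed to the same strain. The study's methods describe biological replicates for each genotype, with Pld6+/+, Pld6+/- and Dnmt3l+/- mice as the WT replicates. A single file per genotype was analysed here, and whether it holds one of these replicates or several pooled is not given in the sources used here. No RNA was measured in the libraries analysed here.

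Round spermatids, the haploid cells formed after meiosis, replace histones first with transition proteins and then with protamines, which pack the sperm genome tightly. The male germline is methylated de novo before birth, in prospermatogonia. Dnmt3l encodes a cofactor without catalytic activity that stimulates the DNA methyltransferases doing this, and Pld6 encodes a mitochondrial protein needed to make piRNAs, small RNAs that guide silencing of transposons. Methylation here means methylation of the C in a CpG dinucleotide. Tissue-specific genes with few CpG sites at the promoter are often methylated in cells that do not express them, whereas CpG-dense promoters usually are not.

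The sequences just before the transcription start set how many CpG sites a read could report on. The 250 bases before the start are shown 5′ to 3′ for the 6 genes whose promoters are described most closely below, from RefSeq (GRCm38.p6, the same assembly as the mm10 build of the deposited calls), with the CpG sites in capitals.
Prm1: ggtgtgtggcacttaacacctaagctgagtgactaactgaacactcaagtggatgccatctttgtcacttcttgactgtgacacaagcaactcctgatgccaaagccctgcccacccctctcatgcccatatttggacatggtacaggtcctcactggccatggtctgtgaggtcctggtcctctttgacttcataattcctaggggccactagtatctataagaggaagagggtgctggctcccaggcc
Prm2: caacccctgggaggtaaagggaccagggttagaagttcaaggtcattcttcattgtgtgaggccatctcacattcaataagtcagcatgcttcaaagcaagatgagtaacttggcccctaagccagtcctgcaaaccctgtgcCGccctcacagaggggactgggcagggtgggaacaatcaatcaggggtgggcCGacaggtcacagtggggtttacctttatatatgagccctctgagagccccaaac
Tnp1: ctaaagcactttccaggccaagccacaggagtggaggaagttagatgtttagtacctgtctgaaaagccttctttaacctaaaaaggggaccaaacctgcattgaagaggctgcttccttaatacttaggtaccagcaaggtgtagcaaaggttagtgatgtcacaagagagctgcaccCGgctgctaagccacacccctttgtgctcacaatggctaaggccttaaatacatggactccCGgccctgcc
Tnp2: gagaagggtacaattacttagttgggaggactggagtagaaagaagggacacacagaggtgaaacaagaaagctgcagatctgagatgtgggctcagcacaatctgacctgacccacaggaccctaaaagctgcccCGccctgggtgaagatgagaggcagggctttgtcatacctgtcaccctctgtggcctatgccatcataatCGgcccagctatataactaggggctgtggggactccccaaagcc
Ldhc: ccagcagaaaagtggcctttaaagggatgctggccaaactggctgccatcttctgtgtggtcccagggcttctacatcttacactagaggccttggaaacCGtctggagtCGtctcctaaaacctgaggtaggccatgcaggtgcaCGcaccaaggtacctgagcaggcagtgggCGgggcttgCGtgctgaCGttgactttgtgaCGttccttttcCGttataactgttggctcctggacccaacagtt
Pgk2: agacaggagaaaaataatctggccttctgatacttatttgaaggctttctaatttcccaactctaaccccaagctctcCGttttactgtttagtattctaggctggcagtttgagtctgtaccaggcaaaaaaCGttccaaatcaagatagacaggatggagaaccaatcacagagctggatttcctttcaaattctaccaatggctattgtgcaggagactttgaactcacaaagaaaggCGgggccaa
These windows are chr16:10796824-10797073 for Prm1, chr16:10792106-10792355 for Prm2, chr1:73015900-73016149 for Tnp1 and chr16:10788656-10788905 for Tnp2, all on the minus strand. The Ldhc window is chr7:46861013-46861262 on the plus strand and the Pgk2 window chr17:40208610-40208859 on the minus strand. Prm1 has 0 CpG sites in its window, Prm2, Tnp1 and Tnp2 have 2 each, Pgk2 has 3 and Ldhc has 8. Acrv1 and Smcp, whose windows are not shown, also have 0. For scale, the median over 32851 RefSeq promoter windows was 6 sites, and 7.87% of the windows had none.

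The cAMP response element TGACGTCA was in none of the 8 windows matched in the RefSeq table, against 1.55% of all windows. The 5-base core TGACG, searched on both strands and contained in the longer element, occurred at 2 places in the Ldhc window, with first bases 61 and 47 bp before the start, and in no other member's. It was present in 17.8% of all windows. The TATA letters TATAAA, again on both strands, were in the Prm2 window alone, 31 bp before the start, against 12.4% of all windows. A match describes letters, not binding. In the WT library the CpG inside the first Ldhc core was methylated in 1 of 4 calls and that inside the second in 0 of 3. The Pld6 KO library held 1 call at each of these sites, unmethylated in both cases.

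Each value below is a methylation level in fraction values, the methylated cytosine calls divided by all calls of a region. Brackets give the 95% Wilson interval of a level, or the 95% Newcombe interval of a difference. With 1 library per genotype there is no replicate error: intervals and Fisher's exact tests cover counting error, compare these libraries and not the genotypes, and are too narrow where calls on the same read are linked or reads are copies of each other. The libraries held 43757722 (WT), 64076569 (Pld6 KO) and 19289688 (Dnmt3l KO) calls, and covered 66.5%, 74.2% and 47.5% of the CpG sites of the reference, so the Dnmt3l KO values are the least precise. Their overall levels were 0.703, 0.722 and 0.301. As a check of the labels, exon 1 of Pld6 had 0 calls in the Pld6 KO library against 90 in WT. Exons 4, 6, 7, 8 and 9 of Dnmt3l had 0 calls in the Dnmt3l KO library against 16 in WT, a small number. All these exons were picked for having no calls in the mutant library, so the 0 followed from the choice. Other exons were covered there, with 123 calls in exon 2 of Pld6 and 17 in exon 11 of Dnmt3l. The sorted cell type was checked at maternally methylated imprints, which carry no methylation in male germ cells: Kcnq1ot1 (0.0780, 0.0700 and 0.0154 in WT, Pld6 KO and Dnmt3l KO), Peg3 (0.0726, 0.0377 and 0) and Mest (0.0200, 0.122 and 0) were low, while Snrpn had too few calls at the annotated start (2, 7 and 0). The promoters of the germ cell genes Ddx4 (0.0472, 0.109 and 0), Dazl (0.0345, 0.117 and 0) and Mael (0.0588, 0.157 and 0.0135) were low, and that of Sycp3 was at 0.305, 0.207 and 0. The Pld6 KO library was thus above WT at Ddx4, Dazl, Mael and Mest, with intervals apart at Dazl and Mael. It was below WT at Sycp3, Kcnq1ot1 and Peg3. The cause was not tested, and later values that are higher in Pld6 KO than in WT carry the same limit.

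The 9 promoters ranged from 0.213 (Pgk2) to 0.947 (Odf1) in WT. In the Dnmt3l KO library all 9 were lower than in WT, although for Acrv1 and Smcp the calls were too few for a comparison. Most promoters were lower there too: over the 18612 tested, the lower quartile of the decrease was 0.0276. In the Pld6 KO library none of the 9 was lower than WT by 0.3 or more. A promoter was taken as 2 kb before to 0.5 kb after the start. Pooled over the 9 genes, the level was 0.711 (0.674 to 0.746) in WT, 0.717 (0.688 to 0.745) in the Pld6 KO library and 0.341 (0.285 to 0.402) in the Dnmt3l KO library. The difference between WT and Dnmt3l KO was 0.370 (0.299 to 0.436), and that between WT and Pld6 KO was -0.0055 (-0.0519 to 0.0399). The WT levels of 3 genes depended on the window: with 0.5 kb on each side of the start Tnp1 was at 0.256, Ldhc at 0.23 and Pgk2 at 0.0286, and with promoters ending at the start they were at 0.903, 0.537 and 0.357.

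**Figure D1:**
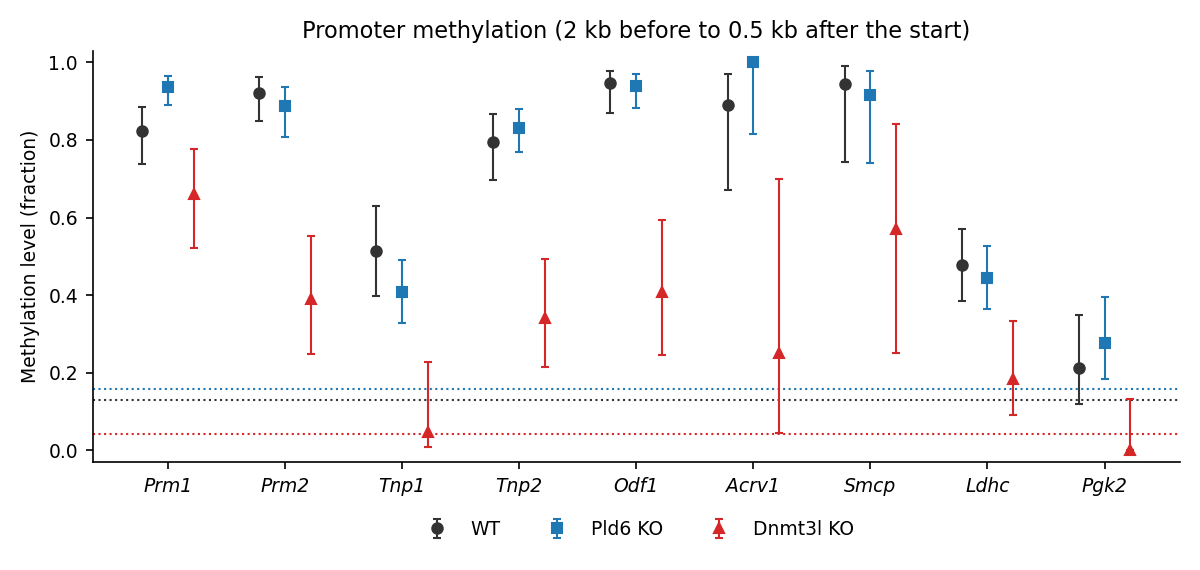
Promoter methylation level (fraction, vertical axis) of the 9 genes in the WT, Pld6 KO and Dnmt3l KO libraries, with 95% Wilson intervals as bars and dotted lines at the median over 18612 promoters in each library. In Dnmt3l KO every point lies below its WT point, whereas the WT and Pld6 KO points lie together, the furthest apart being Prm1 at 0.824 and 0.937.

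The protamines are small arginine-rich proteins that make up the packaging of the sperm head. Prm1 (chr16:10796332-10796823, minus strand, 2 exons) had 84 of 102 promoter calls methylated in WT, 163 of 174 in the Pld6 KO library and 33 of 50 in the Dnmt3l KO library, or 0.824 (0.738 to 0.885), 0.937 (0.890 to 0.964) and 0.660 (0.522 to 0.776). Of the members with enough calls it had the highest promoter level in Dnmt3l KO and the smallest decrease, 0.164 (0.0198 to 0.315). That decrease did not pass the test across all promoters (Fisher's exact test on calls, adjusted p = 0.0826). Prm2 (chr16:10791377-10792105, minus strand, 2 exons) stood at 83 of 90 calls in WT, 86 of 97 in the Pld6 KO library and 14 of 36 in the Dnmt3l KO library. Its levels were thus 0.922 (0.848 to 0.962), 0.887 (0.808 to 0.935) and 0.389 (0.248 to 0.551), a decrease of 0.533 (0.355 to 0.680) in Dnmt3l KO (exact test, adjusted p = 2.91e-08).

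The transition proteins stand between histones and protamines in time. Tnp1 (chr1:73015074-73015899, minus strand, 2 exons) was methylated in 35 of 68 promoter calls in WT, 57 of 140 in the Pld6 KO library and 1 of 21 in the Dnmt3l KO library, giving 0.515 (0.398 to 0.629), 0.407 (0.329 to 0.490) and 0.0476 (0.00846 to 0.227). The Dnmt3l KO library was lower than WT by 0.467 (0.254 to 0.588; exact test, adjusted p = 0.00045). Tnp2 (chr16:10787935-10788655, minus strand, 2 exons), with 66 of 83, 148 of 178 and 14 of 41 calls, stood at 0.795 (0.696 to 0.868), 0.831 (0.770 to 0.879) and 0.341 (0.216 to 0.494). It decreased by 0.454 (0.271 to 0.599) in Dnmt3l KO (exact test, adjusted p = 1.19e-05). The order of the pair in WT depended on the window. With promoters ending at the start Tnp1 was at 0.903 and Tnp2 at 0.875, whereas with 0.5 kb on each side they were at 0.256 and 0.769.

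Odf1 encodes a protein of the outer dense fibres, which stiffen the sperm tail. Its promoter (gene at chr15:38219203-38226735, plus strand, 2 exons) was the most methylated of the 9 in WT, with 71 of 75 calls, or 0.947 (0.871 to 0.979). Pld6 KO had 110 of 117 calls methylated, 0.940 (0.882 to 0.971), and Dnmt3l KO 11 of 27, 0.407 (0.245 to 0.593), a decrease of 0.539 (0.339 to 0.705; exact test, adjusted p = 3.73e-07). Acrv1 (chr9:36693220-36698845, plus strand, 4 exons) encodes the acrosomal protein SP-10. Its promoter has only 6 CpG sites, and 16 of 18, 17 of 17 and 1 of 4 calls were methylated in WT, Pld6 KO and Dnmt3l KO. Smcp (chr3:92583866-92589073, minus strand, 2 exons), which encodes a cysteine-rich protein of the sperm mitochondrial capsule, has 7 promoter sites, with 17 of 18, 22 of 24 and 4 of 7 calls. The Dnmt3l KO calls of these promoters fell below the minimum of 10, so they entered no count of decreases.

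Ldhc and Pgk2 encode testis-specific enzymes of glycolysis, lactate dehydrogenase C and phosphoglycerate kinase 2, and their transcription begins in meiosis, earlier than that of the protamines. Ldhc (chr7:46861263-46878147, plus strand, 8 exons) had 52 of 109 promoter calls methylated in WT, 63 of 142 in the Pld6 KO library and 7 of 38 in the Dnmt3l KO library. The levels were 0.477 (0.386 to 0.570), 0.444 (0.365 to 0.526) and 0.184 (0.0922 to 0.334), and the decrease in Dnmt3l KO was 0.293 (0.117 to 0.424; exact test, adjusted p = 0.0066), just short of 0.3. Pgk2 (chr17:40207018-40208609, minus strand) is a retrogene with 1 exon and lowest of the 9 in WT, at 10 of 47 calls, 0.213 (0.120 to 0.349). It had 18 of 65 calls methylated in the Pld6 KO library, 0.277 (0.183 to 0.396), and 0 of 25 in the Dnmt3l KO library, which allows a level of up to 0.133. The Pgk2 decrease was 0.213 (0.0504 to 0.349; exact test, adjusted p = 0.0312).

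Among the 7 promoters with at least 10 calls in every library, 4 (Prm2, Tnp1, Tnp2 and Odf1) were lower in Dnmt3l KO than in WT by 0.3 or more, where 23.9% of all 18612 promoters tested were. With promoters ending at the start the decrease was 0.208 for Prm2 and 0.148 for Tnp2, and with 0.5 kb on each side it was 0.256 for Tnp1, so each of these calls rested on the window. The Fisher's exact test with Benjamini-Hochberg adjustment over all promoters called 6 of the 7 lower, against 42.7% of all promoters, Prm1 being the exception. In Pld6 KO, 0 of the 7 were lower by 0.3 or more and 0 were called lower by the test, against 0.338% and 1.14% of all promoters. At an unadjusted Fisher's exact p under 0.05 none was lower either, while Prm1 was higher than in WT (unadjusted p = 0.0042, adjusted p = 0.0555). The direct comparison of the mutant libraries gave 4 of 7 lower in Dnmt3l KO than in Pld6 KO by 0.3 or more (26.1% of all promoters), and the test called all 7 (53.9%). Each library serves in 2 of these 3 comparisons, so they are not independent of one another.

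The members' median decrease in Dnmt3l KO was 0.454, against 0.0841 over all promoters. Most mouse promoters are CpG-dense, and the median promoter level was low, 0.131 in WT, 0.158 in the Pld6 KO library and 0.0411 in the Dnmt3l KO library. The promoters of the 9 members hold 6 to 36 CpG sites. Over the 5255 tested promoters in that range the medians were 0.80, 0.813 and 0.244, and the median decrease was 0.428 (middle quartiles 0.254 to 0.576), close to that of the members. The members' median is over the 7 with enough calls, which hold 14 to 36 sites, so the range also takes in promoters with fewer sites than any of these. Prm1 lay towards the upper end: of 3741 promoters at 0.7 or more in WT, whose median in Dnmt3l KO was 0.333, 187 were at or above the level of Prm1 in Dnmt3l KO.

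Averaged around the start, the 9 genes lacked the deep unmethylated valley of the pooled profile of all genes. In the 500-bp bin before the start the pooled WT level was 0.509 (0.419 to 0.598), against 0.0716 over all genes. In the 500-bp bin after the start, the members were at 0.675 (0.619 to 0.726) and all genes at 0.0518. The Pld6 KO values of the members in the same bins were 0.581 (0.505 to 0.653) and 0.661 (0.615 to 0.704). In Dnmt3l KO they were 0.425 (0.285 to 0.578) and 0.238 (0.173 to 0.319). The profile of all genes pools calls, so CpG-dense promoters weigh most in it, and it was not matched for CpG number. Over whole promoters with 6 to 36 CpG sites the WT median was 0.80, so a methylated promoter is not particular to the 9 genes. The pooled WT level was low again in parts of the span from 2 to 8 kb after the start. It was 0.288 from 4000 to 4499 bp and 0.122 from 7000 to 7499 bp, but 0.829 from 4500 to 4999 bp. That span holds the last exon of Odf1 and the Socs1 region next to the protamine cluster, both described below.

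**Figure D2:**
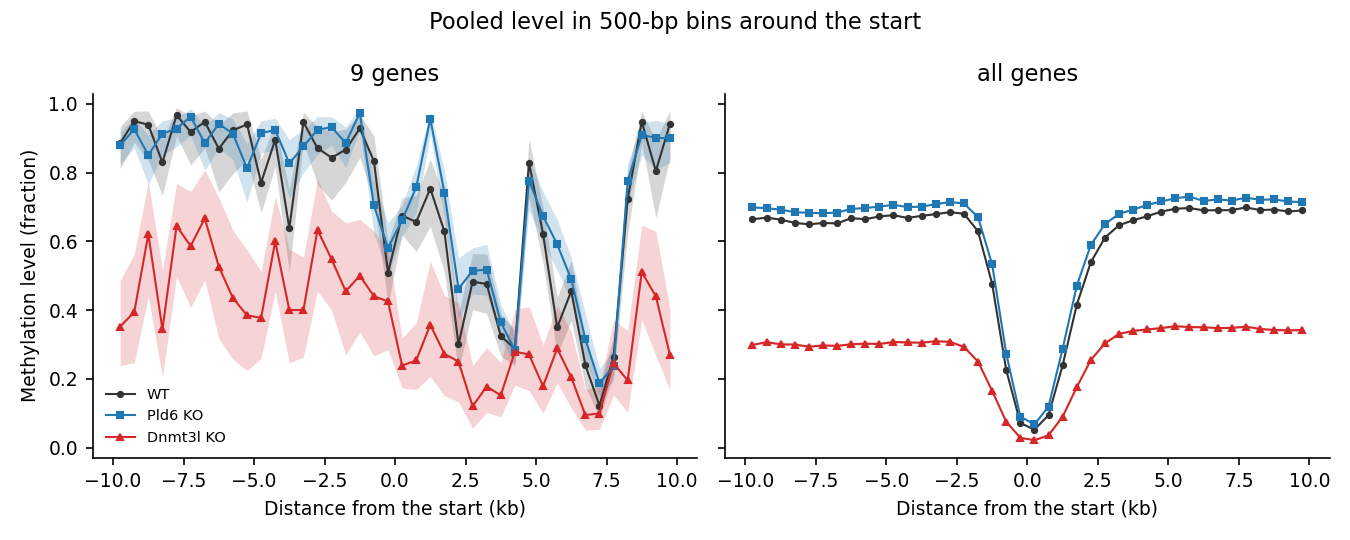
Pooled methylation level (fraction) in 500-bp bins by distance from the start (kb), for the 9 genes on the left and all RefSeq protein-coding genes on the right, in 3 libraries with 95% Wilson intervals as bands. All genes together fall to 0.0518 in WT just after the start, while the 9 genes stay at 0.675 there.

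Inside that average the genes differed, and 4 of the 9 carried a stretch of unmethylated CpG sites in WT. The search was run on these 9 genes alone, so this count cannot be set against a share over all genes. Such stretches were found by scoring each unmethylated call as 1 and each methylated call as -3 from 2 kb before the start to the gene end and taking the highest-scoring run. The scoring was chosen after the site values were seen, and the WT level of a run found in WT is low by construction, so only the other libraries read it independently. Distances are counted from the start, which is 0, to the C of the plus strand.

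In Tnp1 the stretch began inside the gene. It ran from 41 to 589 bp after the start, over 20 CpG sites of both exons and the intron, with 4 of 40 calls methylated in WT, 23 of 84 in the Pld6 KO library and 0 of 16 in the Dnmt3l KO library. The rest of the region stood at 33 of 42 calls in WT. In the libraries that did not locate the stretch, the rest was at 35 of 65 calls (Pld6 KO) and 1 of 9 (Dnmt3l KO). The contrast was thus weaker in Pld6 KO, at 0.274 in the stretch against 0.538 in the rest, and rested on few calls in Dnmt3l KO. Located in Pld6 KO instead, it ran from 70 bp before to 297 bp after the start, with 15 of 83 calls methylated, and WT had 5 of 20 there. The 2 CpG sites shown in the Tnp1 sequence had 2 of 2 calls methylated in WT and 0 of 5 in Pld6 KO, too few to set the libraries apart.

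Odf1 was the reverse case, with a methylated promoter and an unmethylated end. From 6673 to 7293 bp after the start, mostly in its last coding exon, 25 CpG sites had 3 of 102 calls methylated in WT, a level of 0.0294 (0.0101 to 0.0829). Pld6 KO had 16 of 116 calls methylated there, 0.138 (0.0867 to 0.212), and Dnmt3l KO 1 of 57. Outside the stretch the gene and its promoter stood at 0.861 in WT, 0.894 in the Pld6 KO library and 0.301 in the Dnmt3l KO library. The whole Odf1 body was at 0.521 in WT and 0.667 in Pld6 KO, a difference of -0.146 (-0.221 to -0.0690) as WT minus Pld6 KO. The stretch held 102 of 261 body calls in WT and 116 of 396 in Pld6 KO, a smaller share. The body difference therefore also depends on where the reads fell, which the interval does not cover.

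Pgk2 was unmethylated from 171 bp before to 605 bp after the start, with 1 of 43 calls methylated in WT, 13 of 67 in the Pld6 KO library and 0 of 35 in the Dnmt3l KO library over 15 CpG sites. The rest of its single exon and the upstream sequence were methylated in WT, at 21 of 26 calls, and in Pld6 KO, at 15 of 18, but in 0 of 10 calls in Dnmt3l KO. The 3 CpG sites of the Pgk2 sequence above lie in the stretch, and 1 of 16 calls was methylated in WT, 4 of 24 in the Pld6 KO library and 0 of 9 in the Dnmt3l KO library. For Ldhc the WT stretch covered 4 sites from 575 to 385 bp before the start. There 1 of 21 calls was methylated in WT, 1 of 24 in the Pld6 KO library and 0 of 8 in the Dnmt3l KO library. Located in Pld6 KO instead, the stretch was wider, from 659 bp before to 515 bp after the start, with 7 of 82 calls methylated, and WT had 16 of 76 there, 0.211 (0.134 to 0.315). The 8 sites of the Ldhc sequence had 13 of 34 calls methylated in WT, 0.382 (0.239 to 0.55), 3 of 27 in the Pld6 KO library, 0.111 (0.0385 to 0.281), and 0 of 4 in the Dnmt3l KO library. Among Prm1, Prm2, Tnp2, Acrv1 and Smcp no run exceeded 2 CpG sites in WT.

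**Figure D3:**
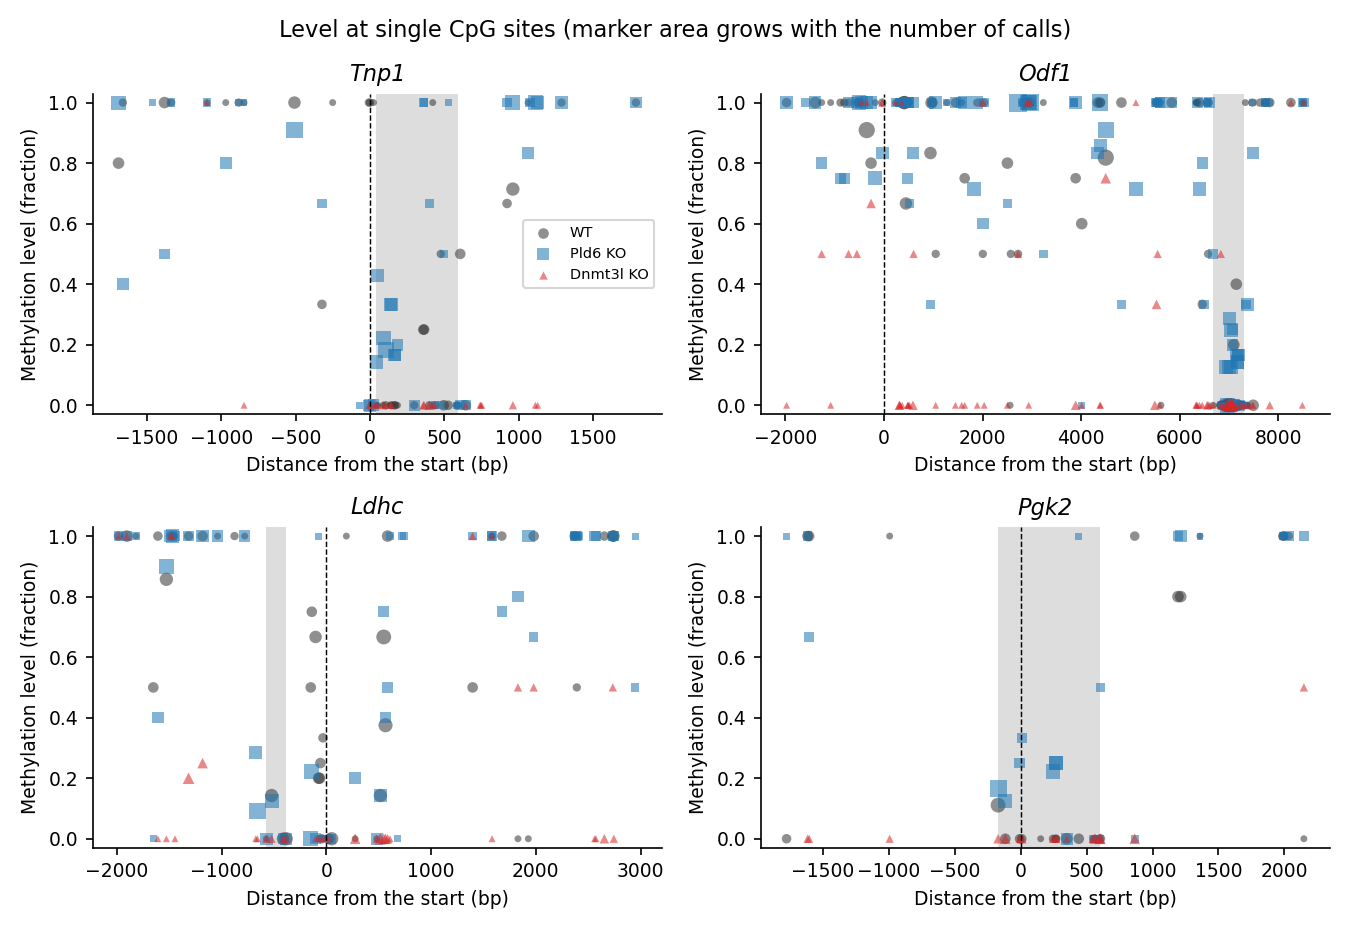
Methylation level (fraction) of single CpG sites by distance from the start (bp, dashed line at 0) in Tnp1, Odf1, Ldhc (to 3000 bp after the start) and Pgk2, with marker area rising with the number of calls and the stretch found in WT shaded. The shaded stretch lies after the start in Tnp1, near the gene end in Odf1, before the start in Ldhc and across it in Pgk2.

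The start-proximal windows (250 bp before to 49 bp after the start) were also set against the gene's own 10-kb flanks, and only Ldhc and Pgk2 passed as lower in WT. Ldhc stood at 0.342 in WT, from 38 calls, against 0.891 in the flanks (Fisher's exact test on calls, adjusted over all genes, p = 2.31e-13), and at 0.111 against 0.886 in Pld6 KO (exact test, adjusted p = 2.21e-18). Pgk2 had 0.0526 against 0.676 in WT (exact test, adjusted p = 1.35e-06) and 0.185 against 0.738 in Pld6 KO (exact test, adjusted p = 8.70e-07). In Tnp1 the window was below the flanks in Pld6 KO, at 0.133 from 30 calls against 0.886 (exact test, adjusted p = 8.99e-19), and not separable from them in WT, where it had 7 calls at 0.714 (exact test, adjusted p = 0.182). Over all genes the window was lower than the flanks in 71.1% of those tested in WT and 71.5% in Pld6 KO, so a low start is the usual state. Tnp2 was higher in the window than in its flanks, 0.846 against 0.338 in WT (exact test, adjusted p = 0.00042) and 0.810 against 0.375 in Pld6 KO (exact test, adjusted p = 0.00016), and so did Prm2 in Pld6 KO, 0.889 from 9 calls against 0.435 (exact test, adjusted p = 0.0176), with flanks that include the unmethylated Socs1 region. Without the sites in other genes and their promoters, the upstream and downstream flanks of Tnp2 were at 0.857 and 0.861 in WT and 0.958 and 0.862 in Pld6 KO, and those of Prm2 at 0.943 and 0.849 in Pld6 KO, so no excess of the window remained. For Prm1, Prm2, Odf1, Acrv1 and Smcp the window held 0 to 4 calls in WT. The unmethylated stretch of Odf1 lies far from its start, and its window did not differ detectably from the flanks in any library. No member passed this test in Dnmt3l KO (37.6% of all genes did). At an unadjusted Fisher's exact p under 0.05, Ldhc alone was lower there (0 of 5 calls against 0.527, adjusted p = 0.0642).

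Prm1, Prm2 and Tnp2 sit together. Within 8889 bp (chr16:10787935-10796823) lie, in the direction of transcription, Prm1, Prm2, the related Prm3 and Tnp2, which are transcribed from the same strand. This interval of 115 CpG sites was at 0.848 (0.803 to 0.884) in WT, 0.888 (0.856 to 0.913) in the Pld6 KO library and 0.462 (0.382 to 0.543) in the Dnmt3l KO library. The Prm3 promoter, which overlaps that of Prm2 and shares calls with it, was at 0.916, 0.914 and 0.431. Since the flanks of these genes overlap, they share calls and are not separate measurements.

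The methylated interval ended at Socs1, a gene for an inhibitor of cytokine signalling that is used in many tissues. From 9 to 10 kb after the Prm1 start 6 of 10 calls were methylated in WT, and from 10 to 11 kb 2 of 123. The next 1-kb bin had 0 of 156 calls methylated in WT, 0 of 201 in the Pld6 KO library and 0 of 77 in the Dnmt3l KO library. On the other side of the cluster, the 3 kb before the Prm1 start stayed methylated in most Dnmt3l KO calls: 12 of 15, 13 of 17 and 5 of 6 calls were methylated in the successive 1-kb bins, against 1 of 6, 2 of 8, 4 of 8 and 2 of 2 going further out, so the bins scattered widely on few calls. In WT the same 3 bins had 14 of 16, 28 of 31 and 9 of 11 calls. Within Prm1 itself, the Dnmt3l KO body was at 15 of 27 calls, 0.556 (0.373 to 0.724), against 47 of 60 in WT and 80 of 87 in Pld6 KO. These calls are also part of the Prm1 promoter calls given above.

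**Figure D4:**
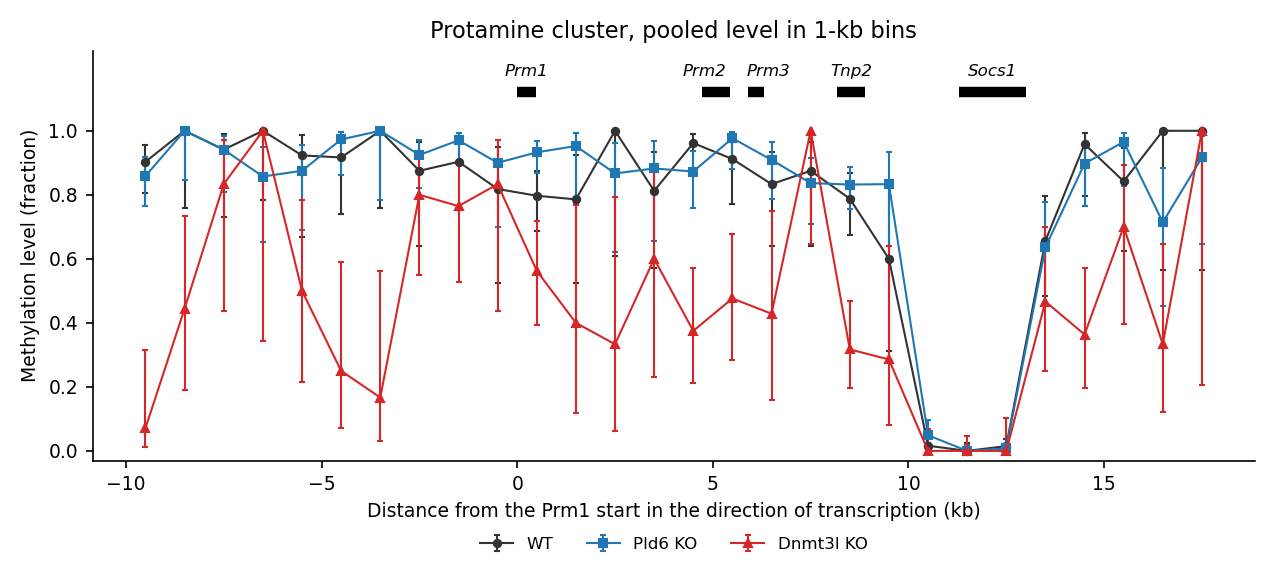
Methylation level (fraction) in 1-kb bins by distance from the Prm1 start in the direction of transcription (kb), in 3 libraries with 95% Wilson intervals as bars and the genes drawn to scale above. WT and Pld6 KO stay high from Prm1 to Tnp2 and reach 0 at Socs1 in the bin 11 to 12 kb after the start.

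Gene bodies were methylated in WT for 7 of the 9 genes, from 0.521 (Odf1) to 0.932 (Prm2), and low for the remaining pair, Tnp1 (9 of 51 calls, 0.176) and Pgk2 (0.293). The bodies of 6 members (Prm2, Tnp2, Odf1, Acrv1, Smcp and Ldhc) were lower in Dnmt3l KO than in WT by 0.3 or more, where 54% of all genes were. Promoters run 0.5 kb past the start, so bodies and promoters share calls. The whole Prm1 body lies inside its promoter, as does much of the Prm2, Tnp1 and Tnp2 bodies. Body and promoter counts are therefore not separate results. Acrv1, which had too few promoter calls, was at 0.858 in WT, 0.892 in the Pld6 KO library and 0.241 in the Dnmt3l KO library in its body, a decrease of 0.617 (0.423 to 0.747). Smcp was at 0.795, 0.922 and 0.412, a decrease of 0.383 (0.110 to 0.602). No member's body was lower in Pld6 KO by 0.3 or more (0.122% of all genes).

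The upstream flanks, from 10 to 2 kb before the start, were at 0.885 (0.866 to 0.902) in WT, 0.905 (0.891 to 0.917) in the Pld6 KO library and 0.489 (0.448 to 0.531) in the Dnmt3l KO library, pooled over the genes. Calls in the overlapping flanks of Prm1, Prm2 and Tnp2 entered the upstream and downstream pools more than once, so the pooled intervals are too narrow. Their flanks are not separate members of the counts. Of the 8 members with enough calls, 7 were lower in Dnmt3l KO by 0.3 or more, near the 77.8% over all genes. Pgk2 was left out, with 3, 4 and 7 upstream calls. The downstream flanks stood at 0.465 in WT, 0.506 in the Pld6 KO library and 0.256 in the Dnmt3l KO library, and 7 of 9 members were lower in Dnmt3l KO by 0.3 or more (74.2% of all genes), the exceptions being Prm2 and Tnp2, whose downstream flanks hold Socs1. Without the sites in other genes and their promoters the pooled levels were 0.876, 0.872 and 0.391. All 9 were then lower in Dnmt3l KO by 0.3 or more, Prm2 going from 0.808 to 0.429 and Tnp2 from 0.861 to 0.493; the share over all genes was not computed for flanks trimmed in this way. In Pld6 KO, 0 upstream and 0 downstream flanks were lower by 0.3 or more (0.798% and 0.737% of all genes). Downstream of Pgk2 1 of 21 calls was methylated in Dnmt3l KO against 44 of 65 in WT, a decrease of 0.629 (0.413 to 0.738).

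The glycolytic members have relatives that are used in most tissues. The promoter of Pgk1, the X-linked gene from which Pgk2 was copied, was unmethylated, with 1 of 99 calls in WT, 3 of 89 in the Pld6 KO library and 0 of 27 in the Dnmt3l KO library. It has 70 CpG sites against the 14 of Pgk2. Ldhb, which encodes the heart type subunit of lactate dehydrogenase, was at 0.144, 0.227 and 0. Ldha, which encodes the muscle type and lies next to Ldhc, was at 0.889, 0.881 and 0.371 at the start of its RefSeq record. At the start of another curated transcript 3530 bp further downstream it was at 0.0250, 0.0629 and 0, with 83 CpG sites. Ldhc, with 33 sites and 0.477 in WT, lay between these.

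A wider list of 25 genes of late spermatogenesis placed the 9 among genes of the same stages. All 25 were found and 22 had at least 10 calls in every library. Of these, 12 were lower in Dnmt3l KO by 0.3 or more (23.9% of all promoters). With promoters of 0.5 kb on each side 7 were, but the share over all promoters and the number of listed genes with enough calls are not available for that window. With the promoters as defined, 0 were lower in Pld6 KO (0.338%), and 15 were lower in Dnmt3l KO than in Pld6 KO (26.1%). The median difference was 0.361 between WT and Dnmt3l KO and -0.0099 between WT and Pld6 KO. In the list 12 promoters were at 0.7 or more in WT and 4 below 0.2. Of all 18612 promoters tested, 3741 were at 0.7 or more in WT, and the median over all was 0.131, itself below 0.2. Highest in WT were Tssk2, a testis-specific serine kinase gene, at 0.952, Acr, which encodes the acrosomal protease acrosin, at 0.942, and Prm3 at 0.916. Lowest were Tssk6 at 0.0296, Tssk3 at 0.0433 and Zpbp2, a gene for a zona pellucida binding protein, at 0.0480, which have 107, 78 and 77 CpG sites in their promoters.

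Tssk2 also had the largest decrease in Dnmt3l KO, to 0.197, a difference of 0.755, followed by the sperm tail gene Odf3 (0.635) and Gapdhs, the sperm glyceraldehyde-3-phosphate dehydrogenase gene (0.625). In Pld6 KO the 3 largest decreases were small: 0.0818 for the spermatid linker histone gene H1f7, 0.0754 for Acr and 0.0610 for Odf3. By Euclidean distance over the 3 libraries, the genes whose levels lay nearest to the pooled level of the members were Tssk1 (0.838, 0.813 and 0.257), Odf3 (0.902, 0.841 and 0.267) and Gapdhs (0.915, 0.863 and 0.290).

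**Figure D5:**
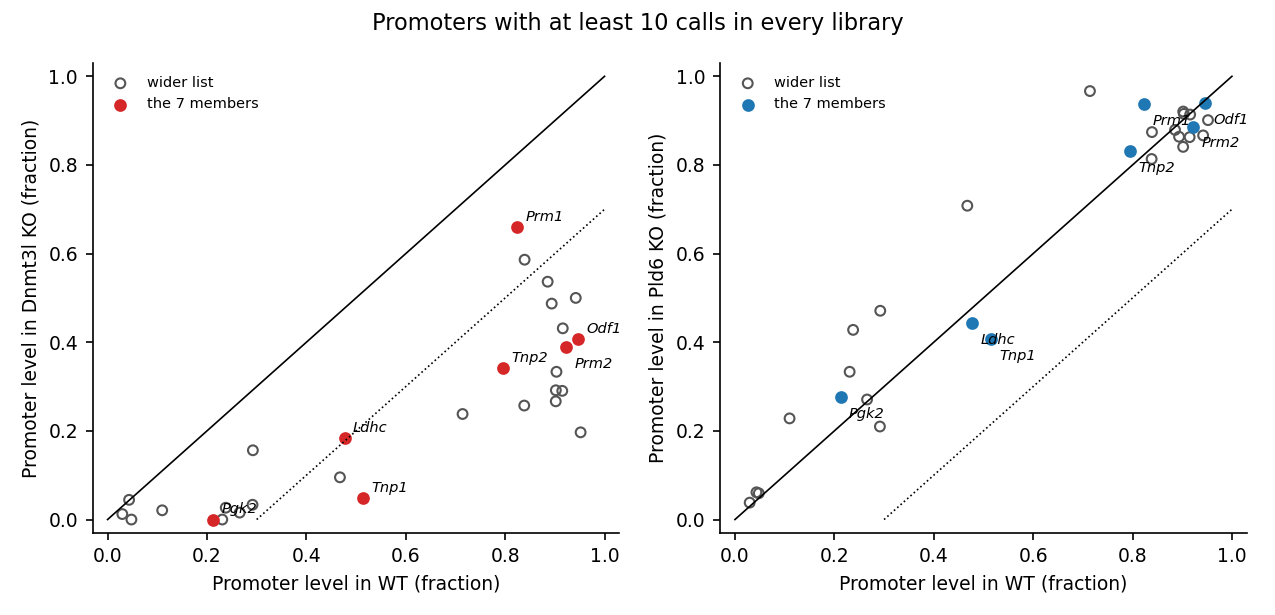
Promoter level (fraction) in Dnmt3l KO (left) and Pld6 KO (right) against WT, for the 7 members (filled) and 22 genes of the wider list (open) with at least 10 calls in every library. The solid line marks equal levels and the dotted line a decrease of 0.3; 4 members and 12 listed genes lie on or below it in Dnmt3l KO and 0 in Pld6 KO.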

How the data were processed

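The authors sequenced post-bisulfite adaptor-tagged DNA with 100-bp reads and called methylation with Bismark on mm10; the deposited files give, for each CpG, the methylated and unmethylated counts (used here) and a fraction (not used). The version of Bismark is not given in the sources used here. Every listed site fell on a CG of GRCm38.p6. Calls were pooled over each region of RefSeq protein-coding genes with Python 3.11.15 (NumPy 2.4.6, SciPy 1.17.1, pandas 2.3.3, Matplotlib 3.10.9). Comparisons between libraries needed at least 10 calls in each of the 3, and a decrease of 0.3 was the threshold for counts. Fisher's exact tests were two-sided on calls, with Benjamini-Hochberg adjustment over all genes tested. For the start-proximal windows the adjustment had been planned over the 9 genes alone and was made over all genes instead, and these tests within a library used every gene with a call in both window and flanks (18871 in WT, 19200 in Pld6 KO, 17359 in Dnmt3l KO). The scripts were tested on simulated data. The members and lists were chosen with earlier results of these data known. Named were the 9 members, their somatic paralogs, their neighbours and, among listed genes with at least 20 calls in each library, the 3 highest and 3 lowest in WT, the 3 with the largest decrease in each mutant and the 3 nearest to the members.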

Additional observations from a re-analysis of the deposited data

How the results depend on the processing

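No paired analysis was possible because each genotype has 1 library, and for the same reason no replicate could be left out. The pooled promoter level moved to 0.627 in WT, 0.639 in the Pld6 KO library and 0.282 in the Dnmt3l KO library with promoters of 0.5 kb on each side, and to 0.762 in the Pld6 KO library and 0.454 in the Dnmt3l KO library with promoters ending at the start. With at least 30 calls in each library, 4 members could be compared and 2 of them, Prm2 and Tnp2, were lower in Dnmt3l KO by 0.3 or more. The others were lower by less, Prm1 by 0.164 and Ldhc by 0.293. The share over all promoters was not computed at this minimum. The pooled body level in Pld6 KO was 0.806 without promoter sites. Upstream flanks of the whole 10 kb gave 0.855 in WT and 0.873 in Pld6 KO. Downstream flanks without other genes gave 0.876, 0.872 and 0.391 in WT, Pld6 KO and Dnmt3l KO. A start-proximal window from 500 bp before to 100 bp after the start gave 0.516 in the Pld6 KO library and 0.309 in the Dnmt3l KO library. With promoters of 0.5 kb on each side, 7 genes of the wider list were lower in Dnmt3l KO by 0.3 or more, a count without a share over all promoters. Of 124 member promoter differences against Dnmt3l KO (WT or Pld6 KO minus Dnmt3l KO) under the alternatives, 122 stayed positive; the exceptions were those of Smcp with promoters of 0.5 kb on each side, at -0.0714 from WT and -0.105 from Pld6 KO, on a few calls. The cause of these shifts was not tested. The stretches located in Pld6 KO, added after seeing the data, are given in the report. Depth limited Acrv1 and Smcp most.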

Other observations

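Among the 22 compared genes of the wider list, 4 had a Pld6 KO promoter interval wholly above that of WT and 0 had one wholly below, against 7.52% and 1.61% of all 18612 promoters. They were singled out after their values were seen, and come from 1 library per genotype. Izumo1, which encodes the sperm protein that binds the egg receptor, was at 0.468 (0.360 to 0.578) in WT, 0.708 (0.627 to 0.778) in Pld6 KO and 0.0952 (0.0377 to 0.221) in Dnmt3l KO. Spem1, needed for shaping the sperm head and neck, was at 0.714 (0.549 to 0.837), 0.967 (0.886 to 0.991) and 0.238 (0.106 to 0.451). Acrbp, which encodes a protein that binds proacrosin, was at 0.292 (0.238 to 0.353) in WT and 0.471 (0.413 to 0.530) in Pld6 KO. Ldhal6b, a lactate dehydrogenase-like gene, was at 0.238 (0.175 to 0.314) in WT and 0.428 (0.364 to 0.495) in Pld6 KO. Among the 7 compared members, 1 (Prm1) had such an interval.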
